A study of Mus musculus with 10 samples.

Results

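The levels of 9 imprinted genes with known roles in growth and muscle, H19, Meg3, Dlk1, Peg3, Mest, Plagl1, Grb10, Ndn and Sgce, were examined in RNA from C2C12 cells, a mouse myoblast line that fuses into multinucleated myotubes when serum is withdrawn. The genes were chosen by symbol, and all 9 were found in each of 4 deposited tables, which list 23417 genes in the 3 Huwe1 tables and 23431 in the USP10 table. Huwe1 is an E3 ubiquitin ligase and USP10 a deubiquitinase, and the study asked how these enzymes act during myogenic differentiation. There were 10 libraries. Myoblasts on day 0 (D0), grown in medium with 10% fetal bovine serum, gave 1 control library labelled wildtype and 2 Huwe1 knockdown libraries. Cells on day 6 (D6) in differentiation medium with 2% horse serum gave 1 wildtype control, 2 Huwe1 knockdown libraries and 1 library from cells carrying a USP10 cDNA under the EF1a promoter. Myotubes on day 8 (D8) gave 1 control, labelled as carrying a non-targeting RNA, and 2 Huwe1 knockdown libraries. Each knockdown library was made with its own short hairpin RNA, and no group carries a genetic deletion. By the study's methods the hairpins came in by lentivirus with puromycin selection, either in myoblasts or in myotubes that had already begun to differentiate, so the D8 myotubes were depleted only after differentiation had started. The methods list the D8 hairpins alone. Whether the wildtype controls of D0 and D6 were infected and selected is not given in the sources used here, so the effect of Huwe1 depletion or USP10 and that of infection and selection cannot be told apart at D0 and D6.

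In most tissues an imprinted gene is read from only the maternal or only the paternal chromosome, as set by DNA methylation laid down in the germ line, and imprinted genes lie in clusters that share enhancers and control regions. Many act in fetal growth, where paternally expressed genes such as Igf2 tend to promote growth and maternally expressed genes such as H19 and Grb10 tend to restrain it. The H19 and Igf2 cluster is strongly transcribed when myoblasts differentiate, and IGF2 is an autocrine signal for this step. The values here sum both chromosomes, so the parental origin of the RNA was not measured.

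Values are FPKM, fragments per kilobase of transcript scaled to library size, with 1 value per condition. In each Huwe1 table the 2 knockdown libraries are pooled in 1 column, so no difference below has a replicate check, and no p-value is given. Ratios are log2 of treated over control, each value with 0.01 FPKM added, which understates the change of the lowest genes. A gene entered a comparison with at least 1 FPKM in at least 1 of its columns and was counted at a 2-fold difference. The tables were normalized separately, so levels in columns of different tables are compared only as descriptions. The control column of the USP10 table carries the same name in its header as the D6 control of the Huwe1 table, but its values differ, and which library it holds is not known. It is called the USP10 table control. For H19, Igf2, Mest, Sgce and Peg3 a D6 ratio against the other table's control is also given. Other D6 ratios use the control of their own table. The control libraries and the USP10 library were estimated at 7820000 to 30100000 fragments, the USP10 table control being the shallowest. The pooled knockdown columns gave no estimate.

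The hairpins targeted the following Huwe1 sequences, shown because those used on D0 and D6 differ from those used on D8.

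D0 and D6, knockdown 1: gggaacctgtgattcgaga

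D0 and D6, knockdown 2: gagaagaggacaactagta

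D8, knockdown 1: gcactcttcataactcacttt

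D8, knockdown 2: gcactgctcatcaaagatgtt

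Each of the 4 targets matched Huwe1 and no other gene among 141767 annotated mouse transcripts, as an exact match over its whole length with both strands searched. None of the 91 annotated transcripts of the 9 imprinted genes held a match. Huwe1 itself was 38.3 FPKM in control cells and 15.2 in the knockdown at D0, 35.1 and 21.9 at D6, and 55.4 and 33.0 at D8, so the remaining level was lowest at D0. Usp10 was 10.3 FPKM in the USP10 table control and 38.3 FPKM in the overexpressing cells, 3.70-fold higher. Without the transgene it was 68.5 FPKM in the D0 control, and the D6 Huwe1 table has 13.2 FPKM for control and 35.4 FPKM for knockdown cells, so the overexpressing column was near the D6 knockdown and below myoblasts.

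H19 and Mest are also hosts of microRNAs, whose mature arms are shown with the seed, bases 2 to 8, in capitals. The sequences are from RefSeq on GRCm38.p6, miR-675 lying within H19 on the minus strand of chromosome 7 and miR-335 within Mest on the plus strand of chromosome 6.

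miR-675-5p: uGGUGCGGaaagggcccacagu

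miR-675-3p: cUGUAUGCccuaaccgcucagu

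miR-335-5p: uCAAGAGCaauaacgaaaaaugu

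miR-335-3p: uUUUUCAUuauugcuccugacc

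The 4 seeds differ from one another. The genes Mir675 and Mir335 are listed at 0 in all 8 columns. The libraries were made from RNA purified on oligo(dT), and mature microRNAs were not measured.

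The 9 genes fell into a group that was well measured and a group near or under 1 FPKM. H19, Peg3 and Sgce were at or above 1 FPKM in all 8 columns, and Mest in 6. Ndn reached 1 FPKM in 3 columns, Plagl1 in 2 and Grb10 in 1, while Meg3 and Dlk1 reached it in none. At D0 the order in the control was Sgce, H19, Peg3, Mest and Plagl1, with Meg3 at 0.00373 FPKM and Dlk1, Grb10 and Ndn listed at 0. In the D6 and D8 controls H19 stood first, followed by Peg3, Mest and Sgce. Each level is a single column, so whether neighbours in these orders differ beyond the spread between cultures cannot be said.

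**Figure D1:**
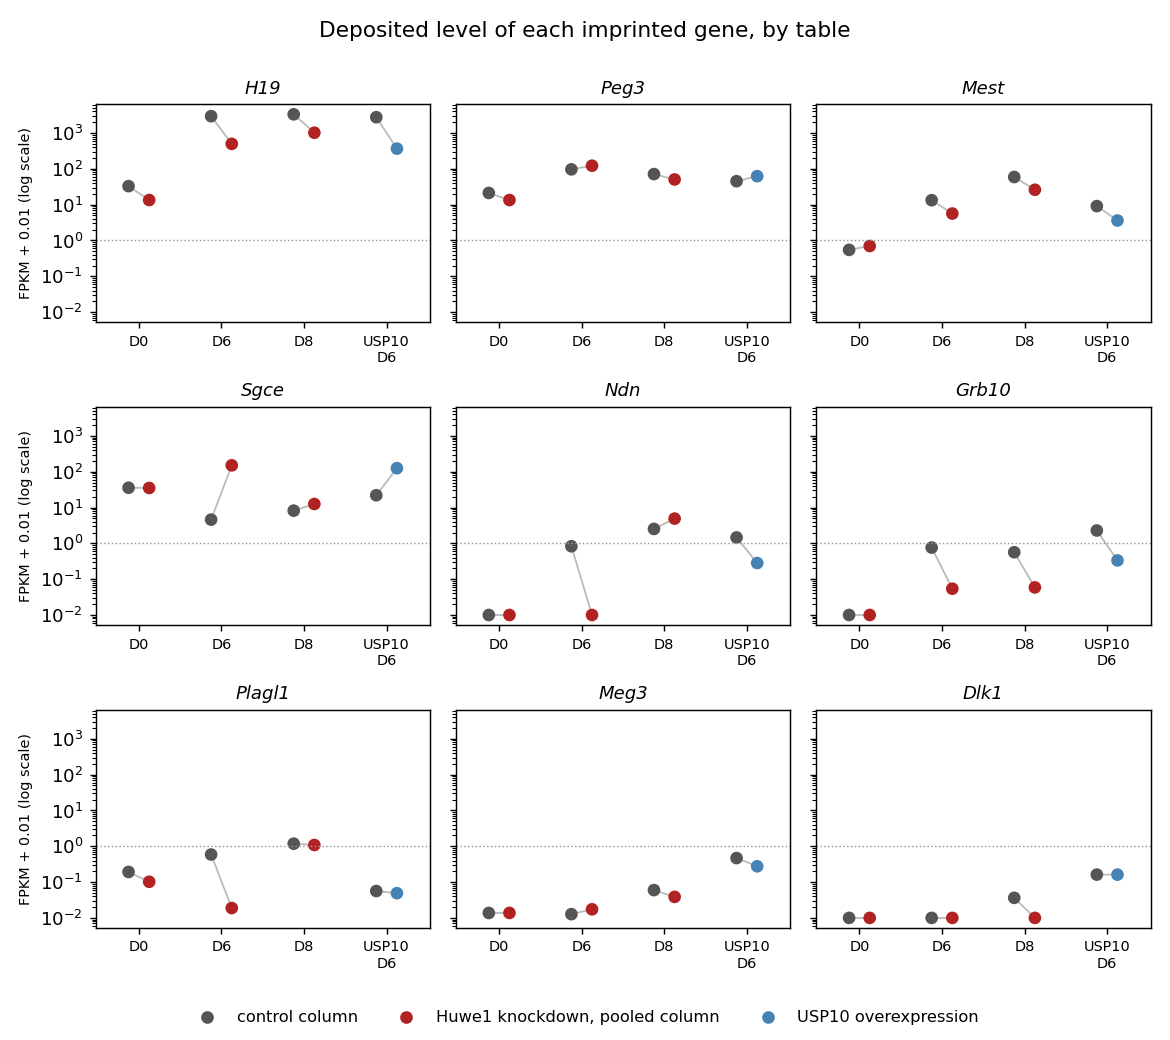
Each panel plots 1 gene in FPKM + 0.01 on a log axis for the 4 tables, with control columns in grey, pooled Huwe1 knockdown columns in red and USP10 overexpression in blue. Points at 0.01 are values listed at 0 and the dotted line marks 1 FPKM. H19 lies below its control in all 4 tables, and Sgce lies far above its control in both D6 tables.

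H19, at chr7:142575532-142578146 of mm10, makes a maternally expressed long noncoding RNA that is abundant in fetal muscle and is silenced in most tissues after birth. In the controls it was 32.9 FPKM at D0, 2957 FPKM at D6 and 3334 FPKM at D8, and 2764 FPKM in the USP10 table control. In the Huwe1 knockdown columns it was 13.5 FPKM at D0, 499 at D6 and 1022 at D8, and with USP10 overexpression it was 367 FPKM. The treated column was thus lower than its control in each of the 4 tables. Of H19, Peg3 and Sgce, the genes that passed the minimum in all 4, H19 alone was at least 2-fold lower in each. Mest and Grb10 were also at least 2-fold lower in each table of differentiated cells, Grb10 at under 1 FPKM in the Huwe1 tables. At D0 Mest was under 1 FPKM and Grb10 was listed at 0. The log2 ratios of H19 were -1.29 at D0, -2.57 at D6, -1.71 at D8 and -2.91 with USP10, that is 2.44-, 5.92-, 3.26- and 7.54-fold lower levels. At D0 only 0.855% of the 10874 genes compared had a lower ratio than H19, and in the other 3 comparisons 4.22%, 5.18% and 2.71% did. The lower level did not depend on which D6 control was used, since those columns differ 1.07-fold for H19, and the ratios against the control of the other table were -2.47 for the knockdown and -3.01 for USP10.

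By rank among all genes of a column, H19 stood high in differentiated cells and lower after treatment. It ranked 14th of 23417 genes in the D6 control and 130th in the D6 knockdown. At D8 it ranked 9th in the control and 37th in the knockdown, and in the USP10 table, among 23431 genes, 9th and 236th. In myoblasts it ranked 2660th and 5234th.

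Igf2, the fetal growth factor that shares enhancers with H19 but is read from the paternal chromosome, was near 0 in myoblasts, at 0.0719 FPKM in control cells and 0.154 FPKM in the knockdown. At D6 it was 613 FPKM in control cells and 20.2 FPKM in the Huwe1 knockdown, a log2 ratio of -4.92. In the USP10 table it was 249 and 29.3 FPKM, a log2 ratio of -3.09. The D6 controls differ 2.46-fold for Igf2, and against the control of the other table the ratios were -3.62 for the knockdown, 12.3-fold in place of 30.3-fold, and -4.39 for USP10. At D8, by contrast, Igf2 was 452 FPKM in control cells and 388 FPKM in the knockdown, a log2 ratio of -0.22, while H19 was 3.26-fold lower in the same columns. The ratio of H19 to Igf2 levels was accordingly 4.82 in the D6 control and 24.7 in the D6 knockdown, and 7.38 and 2.63 at D8. It was 11.1 and 12.5 in the USP10 table. At D0 the ratio was 458 in the control and 87.3 in the knockdown, where Igf2 was under 1 FPKM and the ratio is poorly determined. H19 and Igf2 thus stood in no fixed ratio, and the ratio in the knockdown was above both D6 controls at D6 and below its control at D8.

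**Figure D2:**
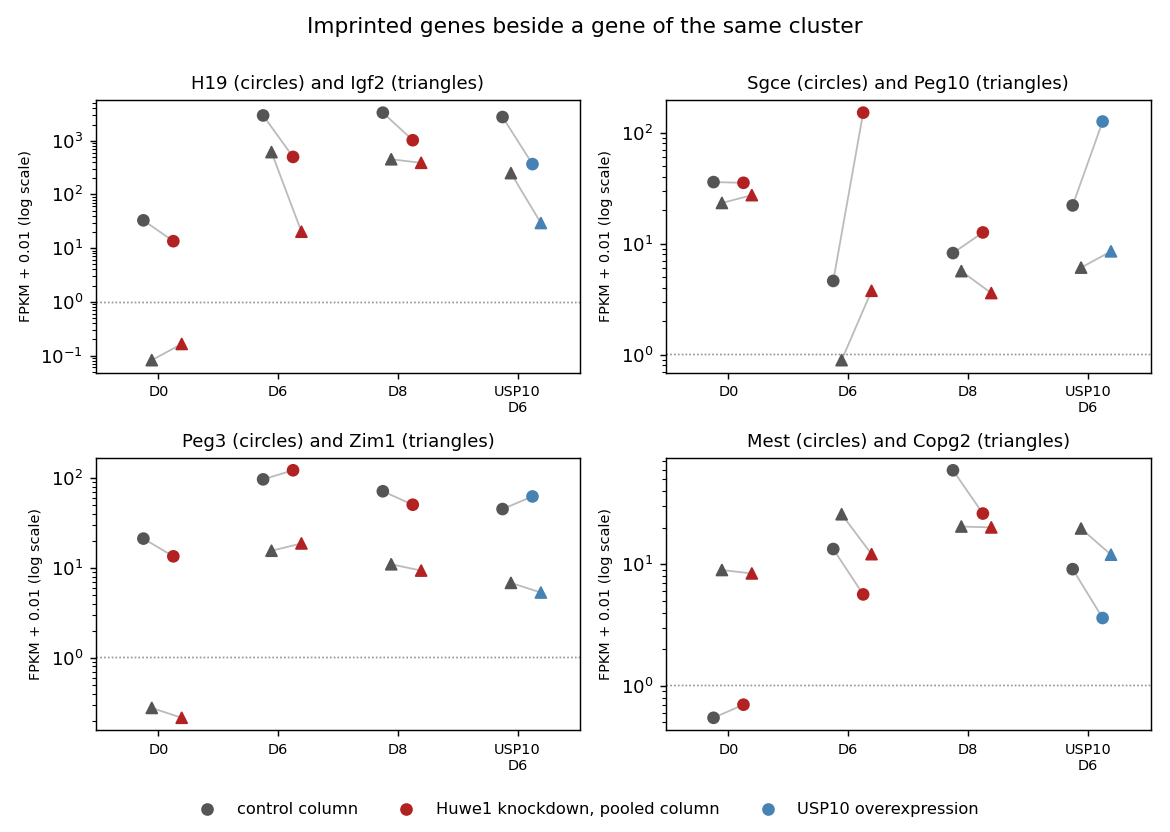
Each panel plots a gene (circles) and a gene of the same cluster (triangles) in FPKM + 0.01 on a log axis, with the tables and colours of the plot of single genes. At D8 H19 is lower in the knockdown while Igf2 is 452 and 388 FPKM. In the D6 Huwe1 table Sgce is 32.8-fold and Peg10 4.21-fold higher in the knockdown. For Peg10 this knockdown column lies below the USP10 table control.

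Mest, at chr6:30733506-30896794 as listed, encodes a paternally expressed member of the alpha/beta hydrolase fold family, first described as a mesoderm-specific transcript. In the controls it was 0.536 FPKM at D0, 13.3 at D6 and 59.2 at D8, and 9.10 in the USP10 table control. In the Huwe1 knockdown it was 0.690 FPKM at D0, 5.64 at D6 and 26.1 at D8, and with USP10 it was 3.60 FPKM. In differentiated cells the treated column was the lower one in all 3 tables, by 2.36-fold at D6, 2.27-fold at D8 and 2.52-fold with USP10, with log2 ratios of -1.24, -1.18 and -1.33. Against the USP10 table control the D6 knockdown ratio was -0.69, under 2-fold. At D0 Mest was under 1 FPKM in both columns and was not compared.

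The listed span of Mest runs beyond the gene into Copg2, a coat protein subunit gene that overlaps Mest on the opposite strand. Copg2 was 25.8 and 12.1 FPKM at D6, a log2 ratio of -1.09, and 19.7 and 12.0 FPKM in the USP10 table. At D8 it was 20.4 and 20.1 FPKM, so that at D8 Mest was lower where Copg2 was nearly level. The libraries were directional, but whether strand was used in counting is not given in the sources used here, and without it reads of overlapping genes cannot be told apart.

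Sgce, at chr6:4674350-4747204, encodes epsilon-sarcoglycan, a membrane protein related to the sarcoglycans of the dystrophin-associated complex, and is paternally expressed. It was 35.8 FPKM in the D0 control and 35.3 FPKM in the D0 knockdown, a log2 ratio of -0.02. At D6 it was 4.60 FPKM in control cells and 151 FPKM in the Huwe1 knockdown, a log2 ratio of 5.03 or 32.8-fold. In the USP10 table it was 22.0 FPKM in control cells and 126 FPKM with overexpression, a log2 ratio of 2.51 or 5.70-fold. Sgce was therefore far higher in both treated D6 columns, and 2.14% and 2.63% of genes had a higher ratio in these comparisons. At D8 it was 8.20 FPKM in control cells and 12.6 FPKM in the knockdown, a log2 ratio of 0.62, under 2-fold.

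Part of the size of the D6 difference rests on the control. The D6 controls of the Huwe1 and USP10 tables differ 4.79-fold for Sgce, and against the USP10 table control the knockdown ratio was 2.78 on the log2 scale. Both treated columns were nevertheless above both controls, the knockdown 6.85-fold and USP10 5.70-fold above the nearer one. Sgce shares a promoter region with Peg10, a retrotransposon-derived gene that is named here after its values were seen. Peg10 was 23.2 and 27.3 FPKM at D0, 0.881 and 3.74 at D6, 5.63 and 3.57 at D8, and 6.06 and 8.50 in the USP10 table. Within each D6 table it was on the same side as Sgce. The D6 controls differ 6.81-fold for Peg10, and the D6 knockdown lay below the USP10 table control. No direction can thus be given for Peg10 in the D6 knockdown. The ratio of Sgce to Peg10 levels was 5.22 in the D6 control and 40.3 in the D6 knockdown, and 3.64 and 14.8 in the USP10 table. It was 1.54 and 1.29 at D0 and 1.46 and 3.52 at D8. The treated column thus had the larger Sgce to Peg10 ratio in all 3 tables of differentiated cells.

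Peg3, at chr7:6705960-6730419, encodes a paternally expressed zinc finger protein that is found in muscle stem cells. It was 21.2 FPKM in control cells and 13.5 FPKM in the knockdown at D0, 96.9 and 122 FPKM at D6, 71.4 and 50.6 FPKM at D8, and 45.3 and 62.5 FPKM with USP10. The log2 ratios were -0.66, 0.34, -0.50 and 0.47, none reaching 2-fold. The treated column was the lower one at D0 and D8 and the higher one in both D6 tables. The D6 controls differ 2.14-fold for Peg3, more than either D6 ratio, and against the other table's control the knockdown ratio was 1.43 and the USP10 ratio -0.63, so no direction can be given for USP10 at D6.

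Peg3os, an antisense RNA of Peg3, and Zim1, a neighbouring maternally expressed zinc finger gene, were added after their values were seen. Peg3os was 25.9 and 20.5 FPKM at D0, 139 and 174 at D6, 135 and 117 at D8, and 97.8 and 130 in the USP10 table, on the same side of its control as Peg3 each time. Without strand, reads of Peg3 and Peg3os could not be told apart. Zim1 was 0.266 and 0.205 FPKM at D0 and 15.5 and 18.7 FPKM at D6, and 11.0 and 9.34 FPKM at D8. In these differentiated columns the ratio of Peg3 to Zim1 levels stayed between 5.42 and 6.53, and in the USP10 table it was 6.65 in the control and 11.8 with overexpression.

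Grb10, at chr11:11930499-12037420, encodes an adaptor that binds the insulin and IGF1 receptors and inhibits their signalling. It was listed at 0 in both D0 columns. It was 0.754 FPKM in the D6 control and 0.0442 FPKM in the knockdown, and 0.556 and 0.0490 FPKM at D8. In the USP10 table it was 2.28 FPKM in control cells and 0.324 FPKM with overexpression, a log2 ratio of -2.78 or 6.85-fold lower. The treated column was the lower one in all 3 tables with differentiated cells, and both D6 treated columns were below both D6 controls. The Huwe1 table values were under 1 FPKM and were not counted, and the D6 controls differ 3.0-fold for this gene.

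Ndn, at chr7:62348277-62349927, encodes necdin, a paternally expressed member of the MAGE family that restrains the cell cycle. It was listed at 0 in both D0 columns. It was 0.820 FPKM in the D6 control and listed at 0 in the knockdown, and in the USP10 table it was 1.45 FPKM in control cells and 0.273 FPKM with overexpression, a log2 ratio of -2.37 or 5.18-fold lower. At D8 the order was the other way, with 2.52 FPKM in control cells and 4.91 FPKM in the knockdown, a log2 ratio of 0.96, just under 2-fold. Because Ndn is a short gene in a single exon, its locus length turned these values into about 40.7 fragments in the D6 control, 75.4 in the D8 control, 18.8 in the USP10 table control and 12.5 with USP10, so its values rest on few fragments.

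Plagl1, at chr10:13090788-13131695, encodes a paternally expressed zinc finger transcription factor, also called Zac1, that is known as a regulator of other imprinted genes. It was 0.182 and 0.0920 FPKM at D0, 0.578 and 0.00882 FPKM at D6, 1.17 and 1.08 FPKM at D8, and 0.0462 and 0.0390 FPKM in the USP10 table. It reached 1 FPKM at D8 alone, where the log2 ratio was -0.12. The D6 controls differ 10.5-fold for Plagl1, at values under 1 FPKM.

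Meg3, at chr12:109540996-109571729, makes a maternally expressed long noncoding RNA, and Dlk1, at chr12:109452823-109463336, encodes a transmembrane protein with EGF repeats related to the Notch ligands. Both belong to the same imprinted domain. Meg3 was at most 0.459 FPKM and Dlk1 at most 0.152 FPKM, both in the USP10 table control. The domain was close to silent in these columns, since 0 of the 7 genes examined in it, Meg3, Dlk1, Rtl1, Rian, Mirg, Dio3 and Begain, reached 1 FPKM in any column and the highest value was 0.658 FPKM, for Rian. On a transcript of 2000 bases 1 fragment is worth 0.0166 to 0.0640 FPKM in the columns with an estimated depth, so values of this size rest on few fragments.

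The counts of the 9 genes were set against those of all genes in the same columns. At D0, 3 of the 9 passed the minimum, 1 was at least 2-fold lower and 0 were higher, where 1.69% of all genes compared were lower and 1.90% higher. At D6, 4 passed, 2 were lower and 1 was higher, where 13.4% of all genes were lower and 17.6% higher. At D8, 6 passed, 2 were lower and 0 were higher, where 10.0% were lower and 7.89% higher. With USP10, 6 passed, 4 were lower and 1 was higher, where 10.0% were lower and 9.70% higher. These are counts of 3 to 6 genes, and with USP10 Grb10 and Ndn passed through the control alone, without which 2 of 4 were lower and 1 higher. The median log2 ratio of those that passed was -0.66 at D0, -0.45 at D6, -0.31 at D8 and -1.85 with USP10, where the medians of all genes lay between -0.01 and 0.05. Over the 4 genes with 1 FPKM in both columns the USP10 median was -0.43. The 2 D6 counts depend on the control. With the control of the other table, 5 of 6 genes that passed were counted for the knockdown and 3 of 4 for USP10. For the knockdown Grb10 and Ndn then passed through the USP10 table control alone, so their lower direction was fixed by the minimum. No count over all genes was made with the exchanged controls.

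**Figure D3:**
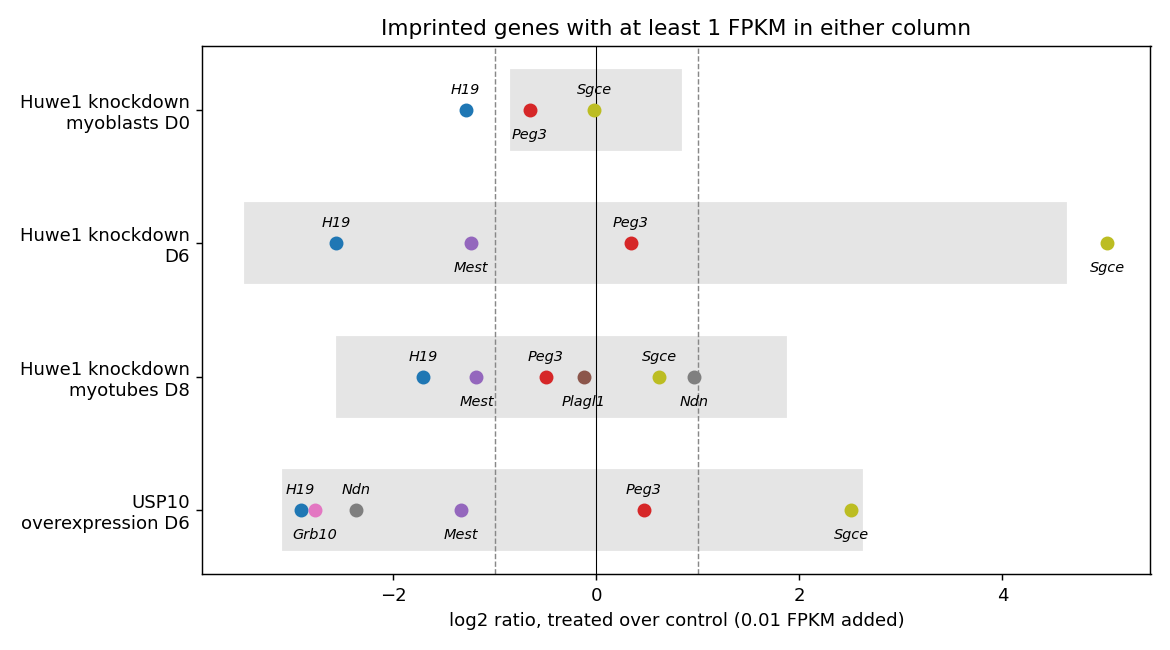
Log2 ratios of treated to control FPKM (0.01 added) are plotted for those of the 9 genes that reached 1 FPKM in the comparison, with grey bars for the central 95% of all genes and dashed lines at 2-fold. H19 is left of the 2-fold line in every row and outside the grey bar at D0, and Sgce is outside it in the D6 knockdown.

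The level of the 9 genes over differentiation was described from the control columns, across tables. Between D0 and D6 controls, 3 of 4 genes that passed were at least 2-fold higher at D6, H19 by 89.8-fold, Mest by 24.4-fold and Peg3 by 4.56-fold, and Sgce was 7.77-fold lower, where 21.5% of all genes were higher and 23.2% lower. Between D0 and D8 controls, H19 was 101-fold, Mest 108-fold, Peg3 3.36-fold and Plagl1 6.16-fold higher, Ndn was listed at 0 at D0 and at 2.52 FPKM at D8, and Sgce was 4.36-fold lower, where 20.0% of all genes were higher and 15.7% lower. Mest, at 0.536 FPKM at D0, passed through the differentiated columns alone, as did Plagl1 and Ndn at D8. With 1 FPKM required in both columns, 2 of 3 genes were higher and 1 lower in each of these comparisons. H19, Mest and Peg3 were thus higher and Sgce lower in both differentiated controls than in myoblasts.

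The same comparison in the knockdown columns of D6 and D0 gave 4 of 4 genes higher at D6, where 19.1% of all genes were higher and 16.9% lower. H19 was 37.1-fold, Peg3 9.08-fold and Mest 8.06-fold higher. Mest, at 0.690 FPKM at D0, passed through D6 alone, and with 1 FPKM required in both columns 3 of 3 genes were higher. Sgce, which was lower at D6 than at D0 in the controls, was 4.28-fold higher in the knockdown. Of the 4 genes that passed, Sgce alone differed in direction between the control and the knockdown series. Plagl1, under 1 FPKM in these columns, was higher at D6 in the controls and lower at D6 in the knockdown. These differences were not tested, since each series has 1 value per day.

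The USP10 table control and the D6 control show how far columns headed as the same control lie apart in these files. Of the 6 genes that passed, H19, Mest and Ndn differed by 1.07-, 1.46- and 1.76-fold. Peg3 was 2.14-fold lower and Grb10 and Sgce 3.0- and 4.79-fold higher in the USP10 table control, where 8.66% of genes were lower and 11.2% higher by this measure. Over 11459 genes the robust SD of the log2 ratio between these columns was 0.63, which contains whatever separates the libraries as well as the separate normalization. H19 was thus close in both controls and far below them in both treated columns, while for Peg3 the controls differed by more than the treatment.

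**Figure D4:**
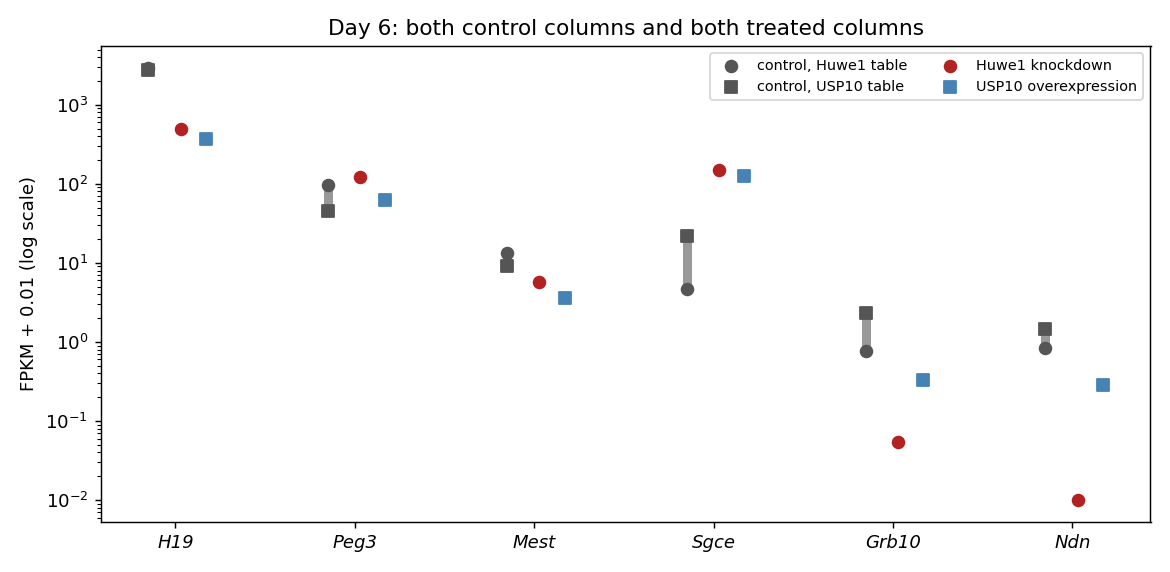
FPKM + 0.01 on a log axis for 6 genes at D6, with grey circles and squares for the controls of the Huwe1 and USP10 tables, joined by a grey bar, a red circle for the Huwe1 knockdown and a blue square for USP10 overexpression. H19, Mest, Grb10 and Ndn lie below both controls in both treated columns, Sgce lies above both, and Peg3 with USP10 lies between them.

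Other genes of imprinted clusters were taken from 2 lists, 25 genes in the clusters of these 9 and 22 genes from other imprinted clusters. Whether each of them is imprinted in these cells was not measured. At D0, 9 cluster genes passed the minimum and none was 2-fold apart, and of 13 genes from other clusters 1 was higher, Dcn, at 1.27 and 4.42 FPKM, where 1.69% of all genes were lower and 1.90% higher. Dcn was under the level set for naming and so named after its values were seen. At D6, 4 of 13 cluster genes were lower and 3 higher, with a median log2 ratio of -0.42. Besides Igf2 and Copg2, Ins2, an insulin gene beside Igf2, had a log2 ratio of 3.89, and Pon3, a paraoxonase gene near Sgce, 2.41. Of 14 genes from other clusters, 2 were lower and 2 higher with a median of 0.36. Over all genes at D6, as given above, 13.4% were lower and 17.6% higher. The cluster gene count of 7 at D6 was 4 with a minimum of 5 FPKM and 3 with 1 FPKM in both columns, and at D8 the count of 4 was 2 under either. Cdkn1c, which encodes the cyclin-dependent kinase inhibitor p57, had a log2 ratio of -7.42, from 8.56 to 0.0400 FPKM, and Igf2r, which encodes the receptor that clears IGF2, -1.63. Dcn, which encodes the matrix proteoglycan decorin, had a log2 ratio of 8.55, and Inpp5f, an inositol phosphatase gene, 1.30. Against the USP10 table control the D6 knockdown was under 2-fold for Copg2 (19.7 and 12.1 FPKM) and Inpp5f (4.28 and 7.27 FPKM). For Pon3 it was only just 2-fold (16.9 and 34.1 FPKM). Dcn was 7.94 and 50.3 FPKM in the D6 controls, 6.32-fold apart, and 2987 FPKM in the knockdown, above both.

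With USP10, 2 of 10 cluster genes were lower and 2 higher with a median of -0.04, and 3 of 16 genes from other clusters were lower and 4 higher with a median of 0.12, where 10.0% of all genes were lower and 9.70% higher. Igf2 was joined by Snrpn, a splicing factor gene near Ndn, at -1.06, and by Casd1 and Pon2, near Sgce, at 1.43 and 1.04. Igf2r had a log2 ratio of -1.60 and Dcn of 5.92, on the same side as in the D6 knockdown. Gatm, a gene of creatine synthesis, had 1.35 and Commd1 1.02. Cdkn1c, at 4.95 and 0.658 FPKM, had -2.89, on the same side as in the D6 knockdown. Cdkn1c and Slc38a4 (1.91 and 0.732 FPKM) passed through the control alone and are named here after their values were seen. With 1 FPKM required in both columns, 1 of 14 genes from other clusters was lower and 4 were higher. In the D6 control of the Huwe1 table Gatm was 56.4 FPKM, above the 51.7 FPKM with USP10, so its direction depends on the control. Against that control Snrpn (10.8 and 6.80 FPKM), Casd1 (8.52 and 10.4) and Pon2 (50.5 and 65.2) were under 2-fold. At D8, 4 of 13 cluster genes were lower and 0 higher with a median of -0.39, among them Snrpn at -1.90 and Cobl, an actin nucleator gene, at -1.31. Of 15 genes from other clusters 2 were lower and 3 higher with a median of -0.09, where 10.0% of all genes were lower and 7.89% higher. Cdkn1c was at -3.22 and Gatm at -1.96, while Airn, the noncoding RNA antisense to Igf2r, was at 1.18 and Zrsr1 at 1.20.

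Genes that mark muscle and other cell types moved with these columns. The summed level of 7 muscle genes was 384 FPKM in control cells and 198 in the knockdown at D0, 7663 and 2245 at D6, 7730 and 2274 at D8, and 4364 and 2770 in the USP10 table, with Acta1 and Des the largest parts in the D6 columns. At D0, 1 of the 4 that passed was at least 2-fold lower and 0 higher. Of 7 that passed, 5 were lower and 1 higher at D6, 5 and 0 at D8, and 3 and 1 with USP10. Myf5, a factor of early myoblasts, was the higher one, at 3.51 and 18.5 FPKM at D6 and 4.79 and 20.2 FPKM in the USP10 table. Myog, the myogenin gene, was 619 and 27.1 FPKM at D6, 392 and 148 at D8, and 305 and 28.8 in the USP10 table, so each treated column of differentiated cells with lower H19 also had lower Myog. The summed level of 7 fibroblast genes was 17.8 FPKM in the D6 control and 3834 in the D6 knockdown, with 6 of 6 genes that passed at least 2-fold higher, and 170 and 3659 FPKM in the USP10 table, with 4 of 6 higher. Dcn, which also stands in the list of genes from other imprinted clusters, made up most of the treated sums, at 2987 and 3037 FPKM. Thy1 was at or near 0 throughout. At D8 the sum was 96.3 and 91.9 FPKM and at D0 it was 181 and 166 FPKM, on both days mostly Col1a1. The treated D6 columns thus had the highest fibroblast sums and the highest Sgce, and of the D6 controls the one with more Sgce also had the larger sum. At D8 it was the other way, the knockdown having more Sgce and the smaller sum.

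The summed adipocyte genes were 16.0 and 141 FPKM at D6 and 37.4 and 234 FPKM in the USP10 table. At D0 and D8 they were between 7.00 and 25.6 FPKM. Lpl was the largest part in each treated column, at 9.44 and 130 FPKM at D6 and 27.4 and 218 with USP10. Pparg was nearly level at D6, at 6.24 and 6.33 FPKM, and under 2-fold with USP10, at 9.41 and 12.2. Of 3 genes that passed in each comparison, 2 were at least 2-fold higher, Lpl and Fabp4. Fabp4 passed through the treated column alone, so its higher direction was fixed by the minimum. Plin1 was listed at 0 in these columns and Adipoq in every column. The endothelial genes summed to 0.106 and 7.92 FPKM at D6 and to 0.781 and 7.31 FPKM in the USP10 table. The larger sums stood in the same columns as the higher Sgce. The endothelial genes that passed were Cdh5 and Tek at D6 and Cdh5 in the USP10 table. They passed through the treated column alone, so their higher direction was fixed by the minimum. Cdh5 was 6.83 and 6.81 FPKM in these treated columns, while Pecam1 was 0.0146 and 0.0432 FPKM there. At D0 the sums were 13.6 and 11.4 FPKM, again mostly Cdh5, and at D8 they were 0.158 and 0.387 FPKM. The macrophage genes summed to at most 4.65 FPKM, with Emr1 listed at 0 in every column. The part of these genes in the levels of the 9 genes was not tested, and in RNA from whole cultures fewer cells of a type and less RNA per cell cannot be told apart.

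The genes whose log2 levels followed those of a well measured imprinted gene most closely over the 8 columns were taken from 10236 genes that reached 5 FPKM in any column. For H19 they were Tnnt1, the slow skeletal troponin T gene (Pearson r = 0.997), Klhl41, which encodes a kelch protein of the sarcomere (0.993), and the histone demethylase gene Jhdm1d (0.992). Tnnt1 was 1844 and 128 FPKM in the D6 control and knockdown and 1486 and 272 FPKM at D8. For Mest they were Pard3, a cell polarity gene (0.990), Tril (0.983) and Maged1, a MAGE family gene (0.982). For Peg3 they were March2 (0.982), Ensa (0.977) and Tmco3 (0.973). For Sgce they were Cpe, which encodes carboxypeptidase E (0.995), and the transcription factor genes Elf1 (0.989) and Meis2 (0.986). Cpe was 11.3 and 145 FPKM in the D6 control and knockdown and 15.4 and 26.6 FPKM at D8, close in shape to Sgce. These correlations are descriptions over 8 columns that share tables, days and in part controls. The genes named depend on the measure. Ranked by Spearman correlation, 0 of the 3 named for H19, Peg3 and Sgce were kept, and 1 for Mest.

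Among the 4 genes themselves, H19 and Mest had r = 0.91, H19 and Peg3 0.80, and Peg3 and Mest 0.70 over the same 8 columns. Sgce had r = -0.47 with H19, -0.53 with Mest and -0.05 with Peg3. H19, Mest and Peg3 thus shared the higher level in differentiated controls, where Sgce was lower than in myoblasts.

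The promoters of Mest and Peg3 are shown for the letters they hold, as 300 bases from 250 before to 50 after the RefSeq start on GRCm38.p6, since both genes were higher in differentiated controls. Of the 9 genes 7 had such windows, 11 in all, and H19 and Sgce were not matched. The motifs searched on both strands were the E-box CANNTG, which myogenic factors bind, its form CAGCTG, which lies within CANNTG, the Plagl1 core GGGGCCCC and the YY1 core AAGATGGC. Of the 3 Mest windows the first is shown, which holds the most E-boxes. In capitals are both of its E-boxes and the Plagl1 core of the Peg3 window.

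Mest, chr6:30733256-30733555, plus strand: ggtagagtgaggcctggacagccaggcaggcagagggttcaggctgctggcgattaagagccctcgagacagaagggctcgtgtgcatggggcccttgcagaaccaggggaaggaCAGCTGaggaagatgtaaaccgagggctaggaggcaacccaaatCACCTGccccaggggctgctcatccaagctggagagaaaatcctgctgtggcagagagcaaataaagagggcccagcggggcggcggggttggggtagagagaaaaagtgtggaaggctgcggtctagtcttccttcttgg

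Peg3, chr7:6730370-6730669, minus strand: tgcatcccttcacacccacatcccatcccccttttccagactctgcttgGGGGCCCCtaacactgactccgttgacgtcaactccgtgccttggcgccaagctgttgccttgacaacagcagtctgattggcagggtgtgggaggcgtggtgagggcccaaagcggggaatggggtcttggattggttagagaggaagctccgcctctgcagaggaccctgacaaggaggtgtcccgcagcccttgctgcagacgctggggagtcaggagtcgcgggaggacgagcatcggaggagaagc

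Of 32851 mouse promoter windows of this length 72.3% held CANNTG, 16.3% CAGCTG, 1.08% GGGGCCCC and 2.75% AAGATGGC. Of the 11 windows 6 held CANNTG, a share below that of all windows. GGGGCCCC was found in the Peg3 window and in none of the other 10, CAGCTG only in the first Mest window, and AAGATGGC in none. The 11 windows held between 1 and 45 CpG dinucleotides, where the median of all windows was 7 with quartiles of 3 and 20. The highest number was in the first Grb10 window, and 98.1% of all windows held fewer. These matches are descriptions of letters, and binding was not measured.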

How the data were processed

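Polyadenylated RNA of the 10 libraries was sequenced on a HiSeq 2000 after ScriptSeq v2 preparation. The authors mapped the reads with Tophat and ran Cuffdiff. The submitters' processing notes name Bowtie2, Cuffdiff and mm10, and tool versions and the annotation are not given in the sources used here. The 4 deposited tables hold the authors' FPKM, 1 value per gene and condition, scaled to transcript length and library size. They also hold the authors' fold change, test statistic, p-value and q-value of each gene, which were not used.

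From the FPKM, log2 ratios with a pseudocount of 0.01, counts at 2-fold over genes that reached 1 FPKM in either column, and Pearson correlations of log2(FPKM + 0.01) were computed with Python 3.11.15, numpy 2.4.6 and pandas 2.3.3, and plotted with matplotlib 3.10.9. With 1 column per condition no test was possible. The 9 genes and all gene lists were chosen with earlier results of these data known. The text names the 9 genes, Huwe1, Usp10 and Igf2, at most 4 genes per list and comparison that were at least 2-fold apart with at least 5 FPKM, and the 3 genes most like each well measured one. Genes outside this rule are marked as named after their values were seen, and the marker genes and the genes of the Meg3 domain are given with their lists. Depth was estimated from the lowest FPKM steps of 6549 genes with a single transcript of at least 1500 bases. The computations were first tested on data with known answers. As alternatives, pseudocounts of 0.1 and 1, minimums of 5 FPKM, of 1 FPKM in both columns and of none, centring on the median gene, other measures of likeness, and, chosen after seeing the data, the D6 control of the other table were tried.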

Additional observations from a re-analysis of the deposited data

Results flagged for a closer look

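Peg3 had log2 ratios of treated to control on opposite sides of 0 on different days of Huwe1 knockdown. The D6 ratio (0.34) minus the D0 ratio (-0.66) was 0.99, and the D8 ratio (-0.50) minus the D6 ratio was -0.83. Each ratio rests on 1 control library and 1 pooled column, neither reached 2-fold, and the difference was not tested. Sgce also lay on opposite sides of 0, with a D6 ratio 5.06 and a D8 ratio 0.64 above the D0 ratio of -0.02. The D0 ratio is close to 0, the D6 controls of the Huwe1 and USP10 tables differ 4.79-fold for this gene, and these differences were not tested either. D8 differs from D0 and D6 in its hairpins, in its control, which carried a non-targeting RNA in place of a wildtype label, and in depletion after differentiation had begun, and these cannot be told apart from the day.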

How the results depend on the processing

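No paired analysis was possible because each table pools its knockdown libraries into 1 column and each control is 1 library, and for the same reason no library could be left out. Counts of the 9 genes at least 2-fold apart that moved by over 1.5 times were, with no minimum, 6 for the D6 knockdown, 4 for the D8 knockdown, 7 for the D6 against the D0 control and 6 for the USP10 table control against the D6 control. With a minimum of 5 FPKM, and with 1 FPKM in both columns, the USP10 count was 3, and with 1 FPKM in both columns the count for the D8 against the D0 control was 3. These settings add or drop genes near 1 FPKM by construction. With the D6 control of the other table the counts were 5 for the knockdown and 3 for USP10. Among the 5, Grb10 and Ndn passed through the exchanged control alone. None of the 19 ratios within tables changed direction under the settings that kept the control, and with a pseudocount of 1 FPKM 18 of 19 kept their side of 2-fold, the exception being Ndn with USP10 at -0.95. Between columns of different tables, 17 of 19 did, the exceptions being Plagl1 between the D8 and D0 controls at 0.88 and Grb10 between the D6 controls at 0.90. With the other table's control, Mest in the D6 knockdown came under 2-fold, Peg3 passed it, and the USP10 ratio of Peg3, under 2-fold in both cases, changed sign. Ranked by Spearman correlation, the 3 genes most like H19, Peg3, Mest and Sgce shared 0, 0, 1 and 0 genes with those named, and on log2(FPKM + 1) 1, 3, 2 and 3. Values far under 1 FPKM rest on few fragments. Nearer 1 FPKM the number depends on length and depth, and was about 40.7 for Ndn at 0.820 FPKM in the D6 control. The depth of the pooled columns is unknown.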
